A study of Mus musculus with 4 samples.

Results

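The genes described here are the 4 ERBB receptors and 6 ligands of the epidermal growth factor (EGF) family, measured in cultured mouse alveolar type II cells. They were chosen by name, though with earlier results of these data known, and make up 10 of the 28096 gene identifiers in the deposited tables. The receptors are Egfr (Entrez 13649), Erbb2 (13866), Erbb3 (13867) and Erbb4 (13869), and the ligands are Areg (11839), Ereg (13874), Hbegf (15200), Tgfa (21802), Btc (12223) and Egf (13645).

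Polyadenylated RNA was sequenced from 4 libraries that share a single genotype label, so there is no contrast between conditions. According to the design text the study held 3 genotypes of 4 mice, all of which carried RosaCreERT2; one also had Etv5loxp/loxp, and another had both Etv4KO/KO and Etv5loxp/loxp. The genotype label of the libraries ends in Etv wt, where wt usually stands for wild type. Of these 3, only the genotype listed without Etv4KO/KO or Etv5loxp/loxp has no altered Etv allele, but no label makes the match in words. Other genotypes were not analysed here. The sources used here give no strain, age or sex. RosaCreERT2 is a tamoxifen-inducible recombinase driven from a locus active in most cell types. Type II cells, which make surfactant, had been sorted by surface protein (EpCAM present; CD24, CD45, CD31 and Pdpn absent). They were then kept in matrigel with BEGM medium, with 100 nM 4-hydroxytamoxifen for 4 days and without it for 1 day more. BEGM is sold for bronchial epithelium and as usually supplied contains added EGF; the labels do not give its composition. Libraries 1 to 4 are named in accession order. No label ties a library to a single mouse, so a p-value measures only how these libraries vary. How much of that variation is technical was not tested.

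ERBB receptors are cell-surface tyrosine kinases that work in pairs. Egfr and Erbb4 bind ligand and signal through their own kinase, Erbb2 has no known ligand and acts as the favoured partner of the others, and Erbb3 binds neuregulins but has a weak kinase and depends on its partner. The ligands are made as membrane-anchored precursors and are released by surface proteases; Areg, Tgfa and Egf bind Egfr, whereas Hbegf, Btc and Ereg bind Egfr and Erbb4. In the lung the family is known for growth and repair of the epithelium after injury.

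The ligands share a module with 6 cysteines, whose bonds fold the part that touches the receptor. The coding bases from the first to the last of these cysteines are shown for 5 ligands to make visible what the counted transcripts have in common and how far they differ. They were read from GENCODE M21 transcripts (GRCm38), and capitals mark the 6 cysteine codons.
Areg: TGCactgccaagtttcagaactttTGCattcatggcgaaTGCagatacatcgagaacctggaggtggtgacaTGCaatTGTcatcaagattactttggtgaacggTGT
Ereg: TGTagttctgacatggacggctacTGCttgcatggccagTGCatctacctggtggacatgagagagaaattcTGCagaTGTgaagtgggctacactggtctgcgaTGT
Btc: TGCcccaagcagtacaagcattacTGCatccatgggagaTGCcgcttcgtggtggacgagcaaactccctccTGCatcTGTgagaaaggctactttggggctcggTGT
Tgfa: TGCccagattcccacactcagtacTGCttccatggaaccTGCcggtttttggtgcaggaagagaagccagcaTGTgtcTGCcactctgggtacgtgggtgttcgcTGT
Egf: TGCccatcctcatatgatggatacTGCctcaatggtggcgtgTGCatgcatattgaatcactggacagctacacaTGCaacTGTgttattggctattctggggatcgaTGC
The modules span 108 bases in Areg, Ereg, Btc and Tgfa and 111 in Egf. Aligned in pairs, between 52.2% (Tgfa and Egf) and 62.0% (Btc and Tgfa) of their bases were identical. Over the longest coding transcript of each member, no 50-base word of Erbb2, Erbb3, Erbb4, Areg, Hbegf or Btc occurred in another annotated gene, and the share was 0.305% for Egfr, 1.56% for Tgfa and 2.26% for Ereg. Egf shared 19.6% of its words with 2 other annotated genes (6330410L21Rik and Gm42697). Whether these genes overlap Egf or lie elsewhere was not examined, so the level of Egf from uniquely aligned reads is uncertain.

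Library totals ran from 12133251 to 13591876 counted reads, and the mitochondrial ribosomal RNAs took from 19.6% to 38.9% of them. Defining type II markers were abundant, with Sftpc at 6301 to 14834 and Sftpb at 1837 to 4522 nRPKM (size-factor-adjusted RPKM, the authors' count scaled for library and gene length). All 12 markers of the type II list reached a mean of 1 nRPKM, as did 9 of 10 type I markers, 6 of 8 basal cell markers and 6 of 7 club cell markers, whereas 0 of 8 endothelial markers did. The libraries differed in these lists. The summed type II markers were lowest in library 1 (9306 against 15410 to 20750 nRPKM). Basal cell markers had 159, 112, 22.3 and 52.5 nRPKM in libraries 1 to 4, and club cell markers had 329, 1063, 151 and 283. In bulk RNA, fewer cells of a type and less RNA per cell cannot be told apart.

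Amphiregulin (Areg) was by far the most abundant member, and Areg, Hbegf, Ereg and Tgfa lay above all 4 receptors, whereas Btc had a lower mean than Erbb2 and Erbb3, and Egf a lower one than Egfr. Of the 10 members, 8 reached a mean of 1 nRPKM, 3 had at least 10 (Areg, Hbegf and Ereg) and 1 had at least 100 (Areg). Among all 28096 identifiers, 42.4% had a mean of at least 1 and 13.9% at least 10. The median member had 5.24 nRPKM, beside 0.345 for all genes and 5.82 for the genes with a mean of at least 1. The order of the members by level was nearly the same in each library: Areg, Hbegf, Ereg and Tgfa came first in that order in all 4, and Egfr, Egf and Erbb4 came last.

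**Figure D1:**
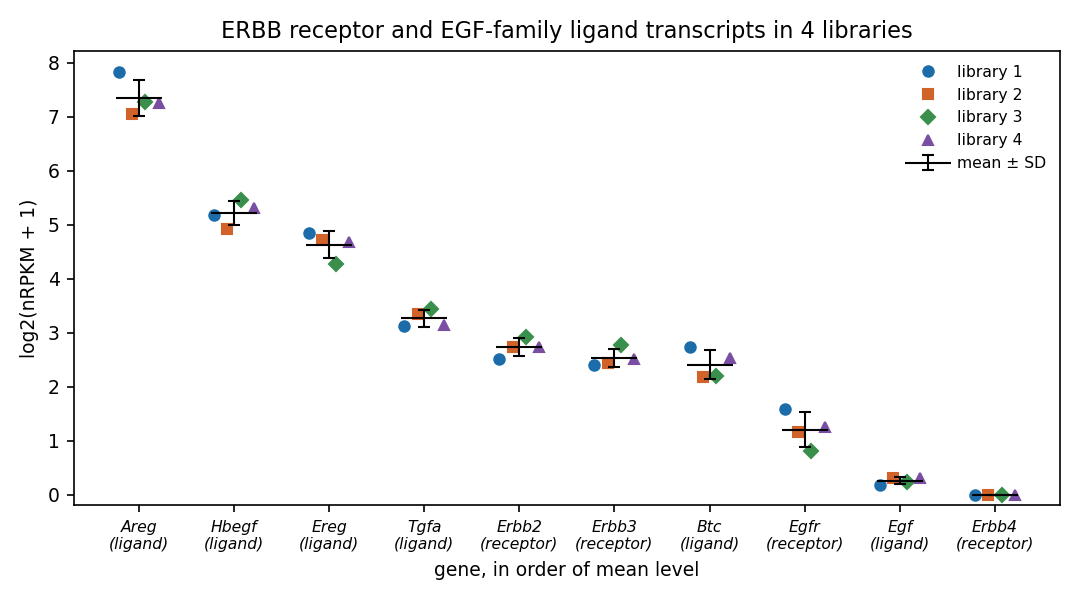
Levels of the 10 members in each library, as log2(nRPKM + 1) on the vertical axis, with members ordered by mean level on the horizontal axis. Symbols are libraries 1 to 4 and black bars are the mean ± SD (n = 4). Areg lies above all others at 132 to 227 nRPKM, Egfr lies between 0.749 and 2.01, and Erbb4 is at 0 in every library.

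Areg, a ligand of Egfr known from epithelial repair, had 227, 132, 155 and 152 nRPKM in libraries 1 to 4, with 2812 to 5556 reads behind each. The mean was 167 ± 41.7 nRPKM (SD, n = 4), rank 126 of 28096 genes. Library 1 stood above the other 3, which lay within 132 to 155; without library 1 the mean was 146 ± 12.4 (SD, n = 3). Areg made up 74.8%, 66.1%, 67.3% and 66.6% of the summed level of the 6 ligands. Its promoter window, from 250 bases before the annotated start to 50 after it, is printed because Areg was the most abundant member; it was the only member's window, of the 7 members with one, that held a cyclic AMP response element or a TATA motif. The window is chr5:91139349-91139648, plus strand, from RefSeq (GRCm38.p6), and capitals mark every motif found.
Areg promoter: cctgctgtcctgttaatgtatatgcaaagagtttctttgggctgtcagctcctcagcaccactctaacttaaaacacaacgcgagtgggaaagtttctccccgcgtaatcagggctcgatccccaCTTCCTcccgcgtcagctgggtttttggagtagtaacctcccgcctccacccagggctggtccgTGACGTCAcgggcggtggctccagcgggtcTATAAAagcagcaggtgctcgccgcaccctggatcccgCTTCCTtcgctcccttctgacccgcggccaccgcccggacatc
The motifs searched on both strands were the cyclic AMP response element TGACGTCA, the TATA motif TATAAA, the PEA3 motif AGGAAG of the ETS subfamily that includes Etv4 and Etv5, and the AP-1 motif TGANTCA. None of these matches overlaps another in this window. With the annotated start counted as 0, the response element began at -61, the TATA motif at -31 and matches to PEA3 at -125 and 7. Of 32851 promoter windows of the same length, 1.79% held TGACGTCA, 13.6% TATAAA, 35.4% AGGAAG and 7.81% TGANTCA. PEA3 was also matched in the windows of Erbb2, Egfr, Tgfa and Egf, and AP-1 in none of the 7. A match describes letters in the window and was not tested for binding or activity.

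Heparin-binding EGF (Hbegf), whose membrane-bound form also signals to neighbouring cells, had 35.2, 29.5, 43.3 and 38.6 nRPKM in libraries 1 to 4, backed by 1245 to 2153 reads. Its mean was 36.7 ± 5.79 nRPKM (SD, n = 4), highest in library 3. Epiregulin (Ereg), a ligand of low affinity and broad receptor range, had 27.8, 25.3, 18.4 and 24.8 nRPKM from 1594 to 2343 reads. Its mean was 24.1 ± 4.00 nRPKM (SD, n = 4) and its lowest value was in library 3, the library where Hbegf was highest. The ranges of the pair did not overlap, but their order rests on gene length. Per length, Hbegf exceeded Ereg by 0.59 ± 0.44 on the log2(nRPKM + 1) scale, in 4 of 4 libraries; in CPM, without length, the same difference was -0.19 ± 0.45, so Ereg then had more reads on average. Ereg shares 2.26% of its 50-base words with the annotated gene Gm19610, which was not separated from it here.

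Transforming growth factor alpha (Tgfa), a high-affinity ligand of Egfr, had 7.74, 9.23, 9.85 and 7.86 nRPKM from 542 to 872 reads, with a mean of 8.67 ± 1.04 (SD, n = 4). Betacellulin (Btc), which binds both Egfr and Erbb4, had 5.69, 3.53, 3.59 and 4.76 nRPKM from 175 to 324 reads, with a mean of 4.39 ± 1.03 (SD, n = 4). Like Areg, Btc had its highest value in library 1 and its lowest in library 2, whereas Tgfa was lowest in library 1. Egf itself, the founding ligand, was near the floor of these libraries, at 0.134, 0.237, 0.171 and 0.245 nRPKM from 13 to 20 reads. Areg, Hbegf and Ereg together made up 93.5% to 95.5% of the summed ligand level.

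Ereg, Areg and Btc lie next to each other among the protein-coding genes of chromosome 5, together with Epgn, in the order Epgn, Ereg, Areg, Btc (RefSeq, GRCm38.p6). Levels within this block ranged from Areg at 167 ± 41.7 nRPKM down to Epgn, the ligand epigen, at 0.635 ± 0.404 (SD, n = 4). Areg exceeded its neighbour Ereg 8.18, 5.22, 8.41 and 6.13 times in libraries 1 to 4. Areg, Ereg, Btc and Epgn were each highest in library 1, as were Egfr on chromosome 11 and Nrg1 on chromosome 8. The share of all genes that were highest in library 1 was not computed. Areg, Btc and Epgn were lowest in library 2 and Ereg in library 3. Btc differed little between these libraries, at 3.53 and 3.59 nRPKM. Epgn rested on 38, 5, 29 and 13 reads.

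Among the receptors, Erbb2 and Erbb3 were the main transcripts, Egfr was lower, and Erbb4 was not detected. Erbb2 had 4.73, 5.69, 6.61 and 5.70 nRPKM in libraries 1 to 4, backed by 464 to 692 reads, with a mean of 5.68 ± 0.768 (SD, n = 4). Erbb3 had 4.28, 4.40, 5.83 and 4.70 nRPKM from 308 to 491 reads, with a mean of 4.80 ± 0.708 (SD, n = 4). Both were lowest in library 1 and highest in library 3. The level of Erbb2 was 1.11, 1.29, 1.13 and 1.21 times that of Erbb3 within the same library, although their ranges over libraries overlapped. Together they made up 81.8%, 89.2%, 94.3% and 88.2% of the summed receptor level. The promoter window of Erbb2 is shown as that of the receptor with the highest level (chr11:98412234-98412533, plus strand, RefSeq, GRCm38.p6), with its PEA3 matches at -207 and 2 in capitals.
Erbb2 promoter: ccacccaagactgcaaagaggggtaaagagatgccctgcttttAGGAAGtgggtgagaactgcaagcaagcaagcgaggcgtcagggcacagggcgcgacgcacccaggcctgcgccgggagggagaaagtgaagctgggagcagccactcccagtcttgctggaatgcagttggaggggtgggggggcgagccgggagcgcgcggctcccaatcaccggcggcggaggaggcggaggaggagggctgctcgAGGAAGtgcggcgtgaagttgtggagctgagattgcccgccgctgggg

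Egfr, the receptor of Areg, had 2.01, 1.22, 0.749 and 1.39 nRPKM in libraries 1 to 4, with 264, 140, 101 and 146 reads. Its mean was 1.34 ± 0.521 nRPKM (SD, n = 4), and it was the only receptor with its highest value in library 1 and its lowest in library 3, the reverse of Erbb2 and Erbb3. The ratio of Erbb2 to Egfr therefore ran from 2.35 in library 1 to 8.83 in library 3, with 4.65 and 4.09 in libraries 2 and 4. Areg exceeded Egfr 113, 108, 207 and 109 times. The summed ligands exceeded the summed receptors 27.6, 17.7, 17.4 and 19.4 times. These are ratios of transcript levels per length and say nothing of protein or of receptor occupancy.

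No read was counted for Erbb4, the receptor of neuregulins, Btc and Hbegf, in any of the 4 libraries. A count of 0 allows up to 3 reads, which is 0.247, 0.231, 0.232 and 0.221 CPM in libraries 1 to 4 and 0.0581 CPM over the group of libraries, so expression below these limits was not detectable at this depth. These CPM are of all counted reads, of which the mitochondrial ribosomal RNAs took 19.6% in library 3 and 38.9% in library 4. They therefore do not rank the libraries by depth for other transcripts. The limits take in counting error alone, because PCR duplicates carry no molecular identifier here. Erbb4 shares no 50-base word with another annotated gene in these transcripts. Among all identifiers, 26.8% had no read in any library. The Erbb4 promoter window (chr1:69108010-69108309, minus strand, RefSeq, GRCm38.p6) is shown as that of the member with no read. It held none of the motifs searched. The window of Btc, a member with a mean of 4.39 nRPKM, held none either. Any link between motifs and level was not tested.
Erbb4 promoter: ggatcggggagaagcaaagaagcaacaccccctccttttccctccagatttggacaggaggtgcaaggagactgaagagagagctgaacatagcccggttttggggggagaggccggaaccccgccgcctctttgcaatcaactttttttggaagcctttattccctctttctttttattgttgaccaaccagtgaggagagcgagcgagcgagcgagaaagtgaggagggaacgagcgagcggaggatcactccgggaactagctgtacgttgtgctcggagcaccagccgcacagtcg

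Receptors were compared with receptors and ligands with ligands within each library, which gave 6 and 15 pairs. In all 21 pairs the gene with the higher mean was higher in 4 of 4 libraries. Each pair had p = 0.13 in the two-sided exact sign-flip permutation test, the smallest p that 4 libraries allow, and a Benjamini-Hochberg adjusted p of 0.13, so the design cannot reach 0.05. On the log2(nRPKM + 1) scale, Areg exceeded Hbegf by 2.14 ± 0.37, Ereg by 2.72 ± 0.33 and Tgfa by 4.09 ± 0.44 (SD, n = 4). Erbb2 exceeded Egfr by 1.53 ± 0.49 and Erbb3 by 0.20 ± 0.09, and Tgfa exceeded Btc by 0.86 ± 0.42. In the order of all members, the neighbours Erbb3 and Btc did not differ beyond their spread: the difference was 0.12 ± 0.39, and Btc lay above Erbb3 in libraries 1 and 4.

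Spread between libraries was tested for every gene with enough reads by edgeR's quasi-likelihood dispersion, which asks whether a gene varies more than genes of like level. The background was 0.0152% called, 2 of 13156 genes (Xist and Tsix), at an adjusted p under 0.05; 6 genes were called without library 1 and 0 without library 2 or library 3 (639 and 628 genes at an unadjusted p under 0.05). Of the 10 members, 9 were tested (Erbb4 had no read) and 0 were called; each had an adjusted p of 0.997 in the edgeR test. At an unadjusted p under 0.05 there were also 0 of 9, against 5.08% of all genes tested, and DESeq2 marked 0 members as dispersion outliers. Without the low-count filter edgeR called 0 members, beside 0.0729% of all genes. A p that misses the threshold does not show that members were equal between libraries.

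**Figure D2:**
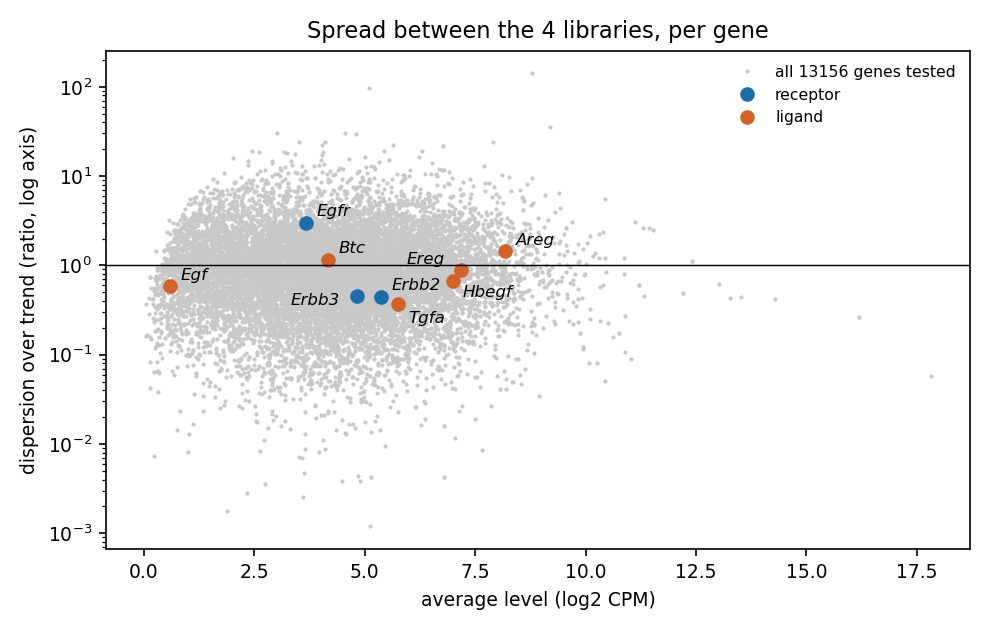
Each gene's dispersion between the 4 libraries divided by the trend for its level (vertical, log axis) against its average level in log2 CPM (horizontal). Grey points are the 13156 genes tested, blue points receptors and orange points ligands; the black line marks a ratio of 1. Egfr is the highest member at 3.01 and Tgfa the lowest at 0.368.

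The dispersion ratio to the trend exceeded 1 for 3 of the 9 members, Egfr (3.01), Areg (1.43) and Btc (1.16), and for 43.0% of all genes tested. The median ratio was 0.673 for the members and 0.841 for all genes tested. Egfr had an unadjusted p of 0.0907 and an adjusted p of 0.997 (edgeR). Its ratio was 1.64 without library 1 and 1.20 without library 3, and it was 4.92 and 5.25 without libraries 2 and 4; without library 4 its unadjusted p was 0.0422 and its adjusted p 0.952 (edgeR). Without library 1 the ratio fell below 1 for Areg (0.173) and for Btc (0.532). For each of the 9 members with reads, the coefficient of variation exceeded what counting error alone gives. It was 25.0% for Areg, where its reads alone would give 1.62%, and 38.8% for Egfr, where they would give 7.84%. For Egf it was 27.1% against 24.1%, so its differences between libraries lie near what 13 to 20 reads allow.

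**Figure D3:**
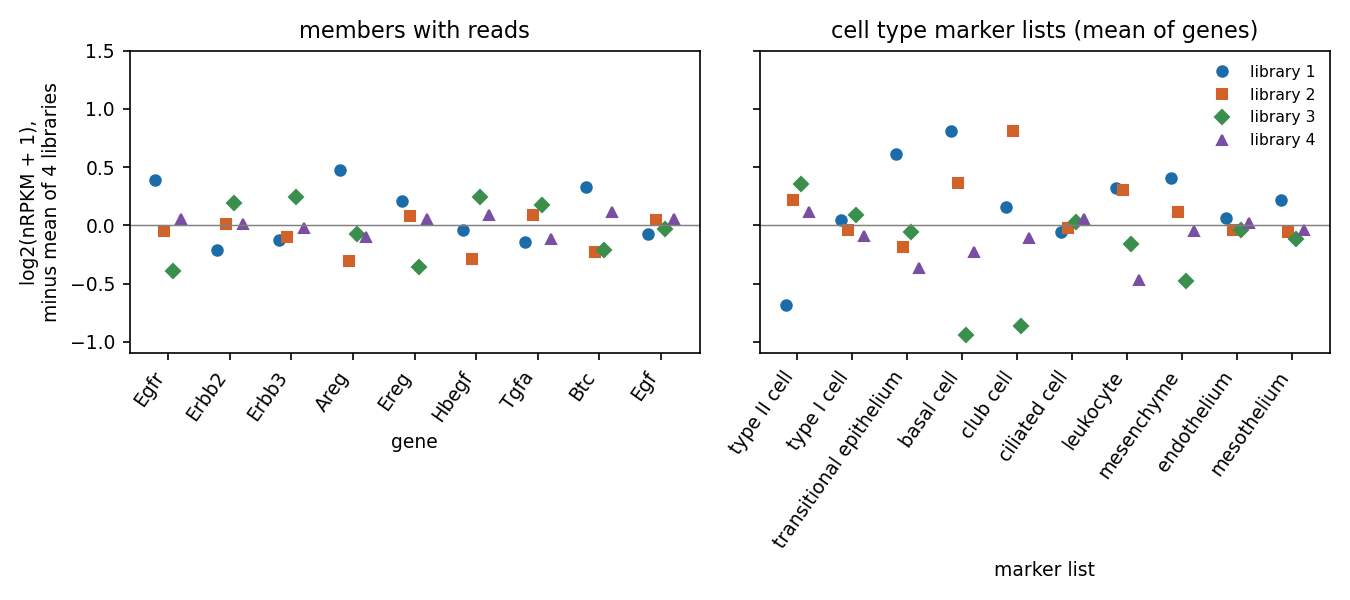
Deviation of each library from the mean of 4, in log2(nRPKM + 1), for the 9 members with reads (left) and for the mean over genes of each cell type marker list (right); symbols are libraries 1 to 4. In library 1, Areg deviated by 0.48, Egfr by 0.39 and Btc by 0.33, Erbb2 by -0.21, and the basal cell list by 0.81.

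The members went different ways between libraries. Of the 9 with reads, 4 were highest in library 1 (Areg, Egfr, Ereg and Btc), 4 in library 3 (Erbb2, Erbb3, Hbegf and Tgfa) and 1 in library 4 (Egf). The share of all genes highest in each library was not computed, so these counts are a description only. Library 1 was also the library with the highest summed markers of transitional epithelium (1640 against 897 to 1238 nRPKM; 10 of 10 markers with a mean of at least 1), basal cells (159 nRPKM against 22.3 to 112) and mesenchyme (29.1, 17.9, 5.53 and 12.9 nRPKM in libraries 1 to 4; 4 of 9 markers at 1 or more). The defining basal markers Krt5 and Krt14 ranged from 8.22 to 70.6 and from 6.10 to 35.1 nRPKM. Leukocyte markers without Lyz2, which type II cells also express, were likewise highest there, with 69.0, 58.7, 27.6 and 17.3 nRPKM. Of these 9 markers, 5 had a mean of at least 1 nRPKM. Ptprc, which encodes CD45, had only 0.245 to 0.696 nRPKM, whereas Cd68 reached 35.3. Leaving out Lyz2 was chosen after its values were seen; with it the list was lowest in library 1 (1352 against 1595 to 2219). Endothelial markers summed to at most 0.870 nRPKM, and Erg was at 0 reads; mesothelial markers summed to 7.22 to 19.3 nRPKM, nearly all of it Msln (6.98 to 18.7), with Upk3b at 0 reads. Ciliated cell markers summed to 12.2 to 19.1 nRPKM with 3 of 8 at 1 or more, and type I markers to 715 to 947. The part of other cell types in the levels of Areg, Egfr, Ereg and Btc was not tested.

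The genes whose pattern over the 4 libraries was most like that of Egfr, the member with the largest range, were Cnih1, Ccdc68 and Nudt6. Likeness was the root mean square difference of centred log2(nRPKM + 1) levels among 6584 genes with a mean of at least 5 nRPKM, and it was 0.032, 0.036 and 0.040 for these 3. Cnih1, for example, had 17.8, 12.8, 10.1 and 13.3 nRPKM in libraries 1 to 4. The match depends on the pseudocount of 1, which shrinks the deviations of a gene as low as Egfr: they ran from -0.40 to 0.39 on this scale, although the highest Egfr level was 2.68 times the lowest, a wider range than that of Cnih1. Other pseudocounts were not tried for this match, and with 4 libraries and so many genes it is a description.

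Other genes of the ERBB pathway were widely expressed at the RNA level: 41 of 47 genes in 5 lists had a mean of at least 1 nRPKM. Of the 44 that could be tested for spread, 0 were called by edgeR, against 0.0152% of all genes. At an unadjusted p under 0.05 there were 2 (Muc1 and Muc4), a share near the 5.08% of all genes tested and so no result about these lists. DESeq2 marked 1 (Muc1) as a dispersion outlier, beside 0.345% of all genes it tested.

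**Figure D4:**
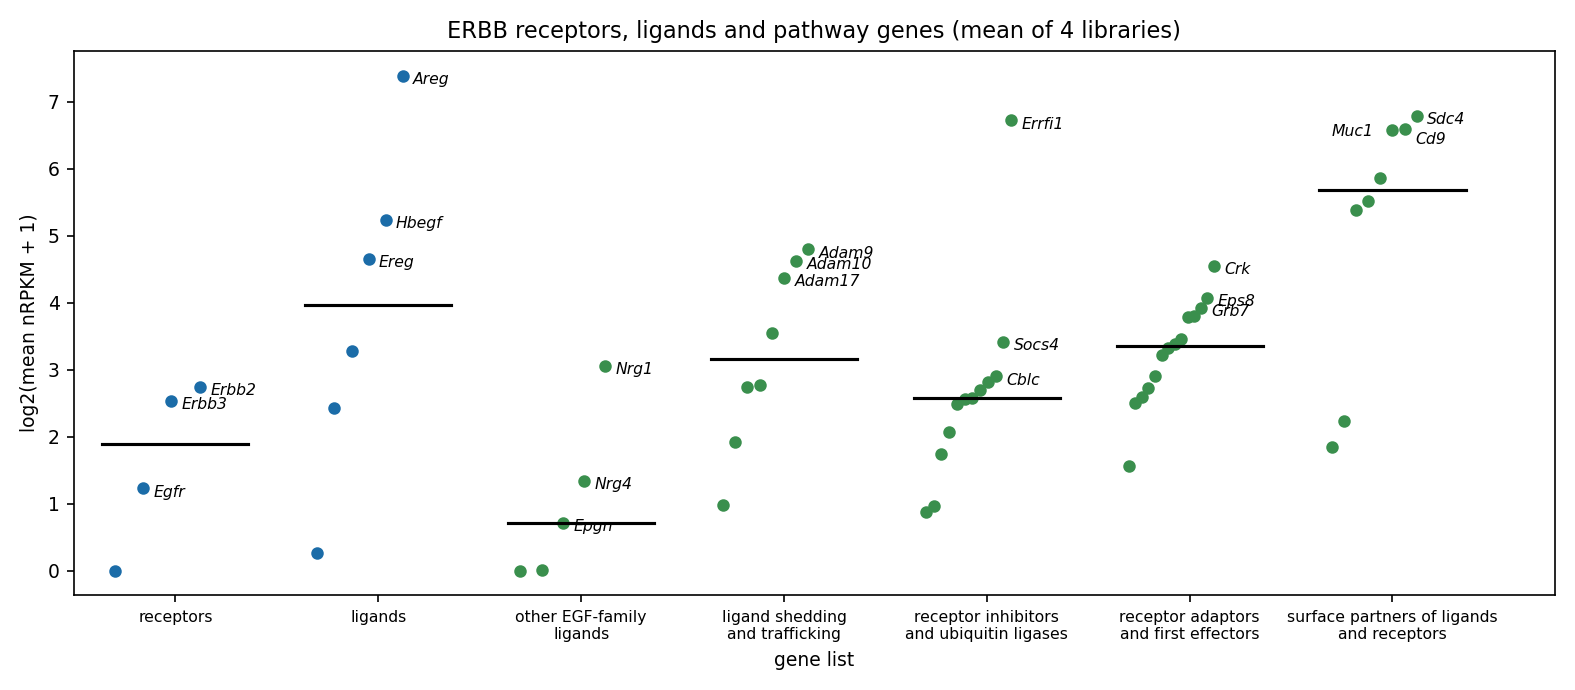
Mean level over the 4 libraries, as log2(mean nRPKM + 1), for the receptors and ligands (blue) and for 5 lists of pathway genes (green); each point is a gene, black bars are list medians, and the 3 highest genes of each list are named. Errfi1, at 104 nRPKM, stands apart from the other inhibitors, of which the next, Socs4, had 9.64.

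Of the other 5 EGF-family ligands listed, 2 had a mean of at least 1 nRPKM. The neuregulins are the ligands of Erbb3 and Erbb4. Neuregulin 1 (Nrg1) had 11.2, 5.81, 5.02 and 7.29 nRPKM in libraries 1 to 4, backed by 217 to 479 reads, highest in library 1 like Areg. Its mean was 7.32 ± 2.73 nRPKM (SD, n = 4). The ratio of Nrg1 to its receptor Erbb3 within a library averaged 1.59 ± 0.740 (SD, n = 4), above 1 in libraries 1, 2 and 4 and below 1 in library 3. Nrg4, a ligand of Erbb4, had 1.54 ± 0.638 nRPKM, Nrg2 had 1 read in all, and Nrg3 had none.

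Of the 8 genes of the shedding list, which holds ADAM proteases and the trafficking factors Rhbdf1, Rhbdf2 and Frmd8, 7 had a mean of at least 1 nRPKM; the exception was the protease gene Adam12 (0.979 ± 0.231; SD, n = 4). Adam9 had 26.7 ± 2.45 nRPKM, Adam10, the main sheddase of Egf and Btc, had 23.7 ± 3.73, and Adam17, the main sheddase of Areg, Hbegf, Ereg and Tgfa, had 19.6 ± 3.04 (SD, n = 4). Adam17 had 18.4, 15.9, 21.8 and 22.4 nRPKM and was thus not highest in library 1, where Areg was. The list median was 8.24 nRPKM, beside 0.345 for all genes and 5.82 for the genes with a mean of at least 1.

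Among 12 inhibitors and ubiquitin ligases of the receptors, 10 had a mean of at least 1 nRPKM and the median was 4.95. Errfi1, which encodes the feedback inhibitor MIG6 that binds the EGFR kinase and is induced by it, had 96.2, 102, 121 and 97.8 nRPKM. Its mean was 104 ± 11.4 (SD, n = 4), with a highest value 1.26 times the lowest, which is a narrower range than the 1.72 times of Areg. Socs4 had 9.64 ± 1.75 and the epithelial ubiquitin ligase Cblc had 6.45 ± 2.33 nRPKM (SD, n = 4).

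All 14 adaptors and first effectors had at least 1 nRPKM, with a median of 9.24. Crk had 22.4 ± 1.25, Eps8, a substrate of the receptor, had 15.8 ± 2.14, and Grb7, an adaptor that binds ERBB2, had 14.1 ± 1.84 nRPKM (SD, n = 4). These 3 genes varied little between libraries, with highest levels 1.14, 1.32 and 1.30 times the lowest.

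Of the surface partners of ligands and receptors, 8 of 8 had at least 1 nRPKM and the median was 50.9. The heparan sulfate proteoglycan Sdc4 had 109 ± 28.1 nRPKM, and the tetraspanin Cd9, which associates with membrane-bound HB-EGF, had 94.9 ± 26.3 (SD, n = 4). The mucin Muc1, which can associate with ERBB receptors, had 30.0, 154, 103 and 89.7 nRPKM in libraries 1 to 4, lowest in library 1 like the type II markers, with an unadjusted p of 0.00416 and an adjusted p of 0.594 in the edgeR test. This p rests on library 1, without which the unadjusted p was 0.167 and the adjusted p 0.992 (edgeR). Muc4, a partner of ERBB2, had an unadjusted p of 0.00518 and an adjusted p of 0.600 (edgeR) and 2.60 ± 1.46 nRPKM (SD, n = 4).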

How the data were processed

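One table of 28096 Entrez identifiers was used for each of 4 libraries. Per the file headers, the authors counted reads that aligned uniquely to a gene model and also deposited a size-factor-adjusted RPKM (nRPKM). GSNAP and mm9 were used, per the submitters' processing notes; the sources used here give no version, annotation or strand setting. Antisense or overlapping genes therefore cannot be told apart.

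Symbols came from RefSeq (GRCm38.p6) by Entrez identifier for 25035 identifiers. Total counts were 12133251 to 13591876 per library. Between any pair of libraries, chi-square per degree of freedom was 39.0 to 113, so none repeats another.

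Levels are nRPKM, and logarithms are log2(nRPKM + 1), which understates differences of low genes. Pairs were compared by two-sided exact sign-flip permutation tests. Spread between libraries was tested on whole counts by edgeR 4.0.16 under R 4.3.3 (intercept only, TMM, filterByExpr; quasi-dispersion over trend against F, Benjamini-Hochberg over all genes), and the script was tested on simulated data; DESeq2 1.42.0 was an alternative. Sequences and words used Biopython 1.88.

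The genes named were all members, the 3 highest of each pathway list, and the 3 genes of most like pattern to the member of largest range. The members and lists were chosen with earlier results of these data known. Beyond this rule, Muc4, Nrg2, Nrg3, Adam12 and genes quoted as counts of 5 or fewer were named after their values were seen. A further allele shared by all of these mice is not reported here.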

Additional observations from a re-analysis of the deposited data

Results flagged for a closer look

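Among 57 sets of 4 library values examined (levels of the members and of named pathway genes, shares, ratios and marker sums), 3 had a library whose gap to the nearest other, over the whole range, exceeded Dixon's 95% critical value; chance flags about 1 in 20 such sets. The share of Areg in the summed ligand level stood apart in library 1 (74.8% against 66.1% to 67.3%; gap 0.861 of the range). The ratio of Areg to Egfr stood apart in library 3 (207 against 108 to 113; gap 0.948 of the range), the library with the lowest Egfr level and 101 Egfr reads. Socs4 stood apart in library 2 (7.03 against 10.3 to 10.6 nRPKM; gap 0.901 of the range). The shares and ratios were chosen after the levels were seen.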

How the results depend on the processing

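The 4 libraries could not be paired with one another, because they form a single group and their labels carry no replicate number. The count of genes called for spread, 2 with all libraries, was 15 of 20579 without the low-count filter, 71 as DESeq2 dispersion outliers, and 0 to 6 on leaving out a library (0 without library 2 and without library 3, 6 without library 1); the cause was not tested. No member was called under any of these settings (lowest adjusted p 0.952, edgeR). All 21 pairs pointed the same way in every library; restricted to members at 1 nRPKM or more in every library, 11 of 11 did, a smaller count by construction. Of 137 alternative values for pairs (pseudocount 0.1, CPM, the level restriction and leaving out each library), 1 was reversed: Hbegf minus Ereg in CPM, at -0.19, since CPM has no length correction. The 50 alternative mean levels (TMM scaling, leaving out each library) moved by less than 1 SD. Reads limit Egf (13 to 20) and Erbb4 (0) most.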
